A study of Mus musculus with 12 samples.

Results

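Transforming growth factor beta (TGF-beta) signaling was examined through 10 genes, found by symbol in the deposited table: the ligands TGFB1, TGFB2 and TGFB3, the latent TGF-beta binding protein family members LTBP1 and LTBP2, the receptors TGFBR1 and TGFBR2, the SMAD proteins SMAD3 and SMAD7, and the TGF-beta-induced matrix protein TGFBI. Of these 10 genes, 9 were listed above the lesion and 10 below it, among 13957 gene symbols in all, and LTBP2 was not listed above the lesion. The RNA came from spinal cord segments just above and just below a moderate-severity contusion at thoracic level 9, taken at 14 days post-injury from male mice that carried human ApoE4 and were operated on at 4 months of age. The mice had either both normal alleles of synj1, which encodes the phosphoinositide phosphatase synaptojanin 1 (synj1+/+), or 1 inactive allele (synj1+/-). The 12 libraries formed 4 groups of 3 libraries, namely synj1+/+ above, synj1+/- above, synj1+/+ below and synj1+/- below. All 4 groups carried ApoE4 and all were injured, and samples of the other ApoE genotype were not analysed here. How the inactive allele was made was not given in the sources used here. The paper lists 3 animals per genotype for RNA sequencing, so the 3 libraries above and the 3 below would come from the same mice. Which libraries shared a mouse was not given.

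TGF-beta ligands are secreted in a latent form, bound to latent TGF-beta binding proteins that anchor them in the extracellular matrix. Released ligand brings the type II receptor TGFBR2 together with the type I receptor TGFBR1, which phosphorylates SMAD2 and SMAD3, and these enter the nucleus with SMAD4 and raise transcription of matrix genes and of the inhibitor SMAD7. After spinal cord injury the pathway is known for its part in scar formation, in which astrocytes, infiltrating macrophages and fibroblasts take part.

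For each gene and site the authors combined the 3 libraries of a group into 1 value, read here as FPKM (fragments divided by transcript length and by the number of mapped fragments). A gene therefore had 1 value in each group. No spread between libraries, no standard error and no test could be computed, and whether a single library carried a group value could not be seen. The comparison of interest was synj1+/- against synj1+/+ within a site. Differences were described as ratios of group values, and a gene was counted as higher or lower when the ratio reached 1.5-fold. By that rule 0.791% of the 13647 rows above the lesion were higher in synj1+/- and 1.94% were lower. Below the lesion 1.16% of 12338 rows were higher and 4.38% were lower. The total read count of single libraries was not in the values used, although the authors had reduced the libraries of each site to the read number of the smallest one.

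The targeted gene was looked at first. SYNJ1 was listed at 1905 in synj1+/+ and 2404 in synj1+/- above the lesion, a ratio of 1.26. Below the lesion it was listed at 1847 and 2593, a ratio of 1.40. At both sites the group labelled synj1+/- had the higher value, so SYNJ1 ran against the labels. Of all genes, 96.3% above and 97.8% below had a ratio as low or lower. Among genes within 2-fold of its level, 100% did at each site. Which part of the transcript the inactivation removes was not given in the sources used here. Every genotype direction that follows rests on the labels as deposited, which were not tested, and synj1+/- stands for the groups labelled so.

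Above the lesion the 9 genes differed little between the genotypes, with none higher and none lower by 1.5-fold. The largest differences were those of both receptors, each 1.28-fold lower in synj1+/-. Below the lesion LTBP2 was 3.25-fold lower (log2 -1.70, or -2.57 with 1 subtracted from the values) and TGFBI 1.97-fold lower in synj1+/-, while both receptors, TGFB1 and LTBP1 were between 1.33-fold and 1.41-fold lower. Only SMAD7, the inhibitor, had a higher value in synj1+/- there, and LTBP1 was the only one with a higher value above.

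**Figure D1:**
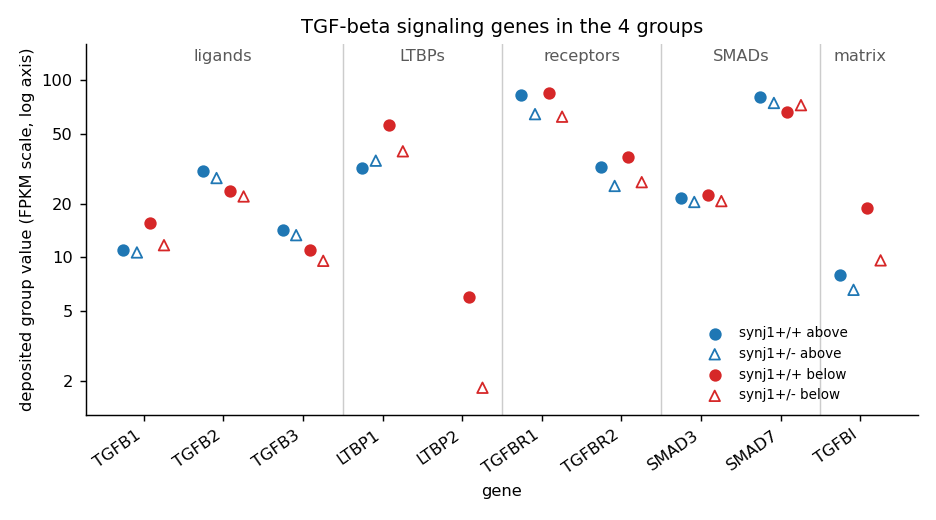
The deposited group value of each gene on the FPKM scale (log axis, y) is drawn for the 10 genes (x), with blue for above and red for below the lesion, filled circles for synj1+/+ and open triangles for synj1+/-. Each point is the authors' single value for 3 libraries, without an error bar, and the gap between red circle and red triangle is widest for LTBP2 (5.99 and 1.84) and TGFBI (19.0 and 9.63).

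On the deposited scale, which is per transcript length, TGFBR1 and SMAD7 stood highest in all 4 groups. In synj1+/+ above they were listed at 82.3 and 80.4, followed by TGFBR2 at 32.4, LTBP1 at 31.9, TGFB2 at 30.8, SMAD3 at 21.6, TGFB3 at 14.2, TGFB1 at 11.1 and TGFBI at 7.98. TGFBR1 and SMAD7 stood in opposite order in the genotypes: TGFBR1 was first in both synj1+/+ groups and SMAD7 was first in both synj1+/- groups. TGFBI stood last of 9 above the lesion, but seventh of 10 in synj1+/+ below. Without values per library, no neighbours in this order could be called different, and levels of different genes also depend on the transcript models, which were not given in the sources used here.

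Of the ligands, TGFB1, the form best known from blood-derived cells and microglia, had the largest genotype difference, and had it below the lesion. TGFB1 was listed at 11.1 in synj1+/+ and 10.7 in synj1+/- above the lesion, and at 15.6 and 11.7 below it. The ratio was 0.963 above and 0.751 below, and 7.95% of all genes listed below had a ratio as low or lower. In the other 3 groups TGFB1 lay between 10.7 and 11.7, so the synj1+/+ group below stood apart as the high one. TGFB2, which in the nervous system is made by neurons and astrocytes among other cells, was listed at 30.8 and 28.1 above the lesion and at 23.6 and 22.1 below. Its genotype ratios were 0.911 and 0.935, and its higher values were those above the lesion in both genotypes. TGFB3 followed the same order, with 14.2 in synj1+/+ and 13.4 in synj1+/- above and 11.0 and 9.57 below, and ratios of 0.940 and 0.872. Thus all 3 ligands had ratios under 1 at both sites, and none reached 1.5-fold.

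The receptors were the only members lower by 1.2-fold or more at both sites besides TGFBI. By that wider rule 10.5% of all genes above the lesion and 14.9% below were lower in synj1+/-. TGFBR1, the type I receptor kinase, was listed at 82.3 in synj1+/+ and 64.3 in synj1+/- above, and at 85.0 and 62.2 below. The ratios were 0.782 and 0.732, or log2 ratios of -0.35 and -0.45. TGFBR2, the type II receptor that binds the ligand first, was listed at 32.4 and 25.3 above and at 36.8 and 26.6 below. Its ratios were 0.782 and 0.722, or -0.36 and -0.47 on the log2 scale. The receptor pair therefore differed between the genotypes by nearly the same factor at each site. Above the lesion 6.09% of genes had a ratio as low as that of TGFBR1 or lower, and below the lesion 6.99% did.

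TGFBR1 lies on chromosome 4 from 47353222 to 47414931 on the plus strand and TGFBR2 on chromosome 9 from 116084293 to 116175360 on the minus strand (GENCODE, GRCm38). Their promoters are shown because the receptor pair was lower together at both sites. Each is 180 bases from RefSeq (GRCm38.p6), 5′ to 3′ on the strand of the gene, from 250 to 71 bases before the RefSeq start, at chr4:47352972-47353151 for the first of the RefSeq promoters of TGFBR1 and chr9:116175434-116175613 for TGFBR2. Capitals mark the SMAD box, CAGAC or GTCTG, which is the short element that SMAD3 and SMAD4 are known to bind, and the GC box of SP1-type factors, GGGCGG or CCGCCC.
TGFBR1: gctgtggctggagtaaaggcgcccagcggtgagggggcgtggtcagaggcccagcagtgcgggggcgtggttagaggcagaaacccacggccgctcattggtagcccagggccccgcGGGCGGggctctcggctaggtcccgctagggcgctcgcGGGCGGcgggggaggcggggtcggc
TGFBR2: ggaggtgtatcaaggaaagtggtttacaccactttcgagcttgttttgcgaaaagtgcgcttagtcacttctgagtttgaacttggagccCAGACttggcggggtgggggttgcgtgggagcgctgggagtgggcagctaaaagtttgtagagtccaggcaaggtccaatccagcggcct

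In these windows TGFBR1 held 2 GC boxes and 0 SMAD boxes, and TGFBR2 held 1 SMAD box and 0 GC boxes. The other RefSeq promoter of TGFBR1, not printed, held 1 SMAD box and 0 GC boxes, as that of TGFBR2 did. Of the same 180-base window of 32851 RefSeq promoters, 33.2% held a SMAD box and 21.1% a GC box on either strand. A match describes letters and does not show binding.

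LTBP1, which holds latent TGF-beta in the matrix, was listed at 31.9 in synj1+/+ and 35.2 in synj1+/- above the lesion, a ratio of 1.10. Below the lesion it was listed at 56.1 and 39.7, a ratio of 0.708. The synj1+/+ group below was again the high one of the 4. LTBP2, which shares the domain structure of LTBP1 but is not known to bind latent TGF-beta, was listed only below, at 5.99 in synj1+/+ and 1.84 in synj1+/-. The log2 ratio was -1.70, and -2.57 with 1 subtracted from both values, and 0.284% of all genes below had a ratio as low or lower. Below the lesion 4.38% of all rows were lower by 1.5-fold, but 3.65% of the genes listed at both sites. The part of listing at 1 site only in the rank of LTBP2 was not tested. LTBP2 was close to the lowest value of the table, which is 1, and among 2020 genes within 2-fold of its level 8.56% were lower by 1.5-fold and 0.446% had a ratio as low or lower.

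TGFBI, a secreted matrix protein named for its induction by TGF-beta, was listed at 7.98 in synj1+/+ and 6.57 in synj1+/- above the lesion. Below the lesion it was listed at 19.0 and 9.63. The synj1+/+ group below was the high one and the other 3 lay between 6.57 and 9.63. The log2 genotype ratio was -0.28 above and -0.98 below, where 1.34% of all genes had a ratio as low or lower. Among 3917 genes within 2-fold of its level below the lesion, 5.54% were lower by 1.5-fold and 1.86% had a ratio as low or lower.

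TGFBI lies on chromosome 13 from 56609523 to 56639562 on the plus strand and LTBP2 on chromosome 12 from 84783212 to 84876532 on the minus strand (GENCODE, GRCm38). Their promoters are shown as those of the 2 genes past 1.5-fold, over the same window and from the same source as for the receptors, at chr13:56609336-56609515 for TGFBI and chr12:84876562-84876741 for LTBP2. Capitals again mark SMAD boxes (CAGAC or GTCTG) and GC boxes (GGGCGG or CCGCCC).
TGFBI: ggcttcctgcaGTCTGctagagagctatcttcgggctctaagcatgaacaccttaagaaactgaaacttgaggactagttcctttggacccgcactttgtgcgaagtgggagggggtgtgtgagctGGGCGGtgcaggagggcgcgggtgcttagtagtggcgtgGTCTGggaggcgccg
LTBP2: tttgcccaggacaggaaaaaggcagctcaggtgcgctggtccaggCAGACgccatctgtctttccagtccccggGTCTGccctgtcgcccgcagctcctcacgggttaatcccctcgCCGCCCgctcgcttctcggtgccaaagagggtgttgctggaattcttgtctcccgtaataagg

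TGFBI and LTBP2 each held 2 SMAD boxes and 1 GC box. Among the 10 promoter windows taken, from 8 genes, 6 held a SMAD box and 5 a GC box, against 33.2% and 21.1% of all windows. Entries on chromosome 18, where SMAD7 lies, were left out, and no window of TGFB3 was used. These counts therefore say nothing of SMAD7 or TGFB3. The AP-1 site (TGAGTCA or TGACTCA), found in 3.14% of all windows, and the TATA box (TATAAA or TTTATA), found in 8.37%, were in 0 of the 10.

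Neither SMAD protein reached 1.2-fold at a site. SMAD3, which carries the receptor signal to the nucleus, was listed at 21.6 in synj1+/+ and 20.6 in synj1+/- above and at 22.6 and 20.8 below, with ratios of 0.951 and 0.921. SMAD7, which is induced by the pathway and blocks its receptor, was listed at 80.4 and 74.4 above and at 66.5 and 72.3 below. The ratios of SMAD7, 0.925 and 1.09, lay on either side of 1. SMAD7 was the only gene of the set whose lowest value was that of synj1+/+ below, the group in which TGFB1, LTBP1 and TGFBI were highest.

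Counted together, 0 of 9 genes above the lesion (all genes 1.94%) and 2 of 10 below (4.38%) were lower in synj1+/- by 1.5-fold. At either site 0 were higher (all genes 0.791% above and 1.16% below). By 1.2-fold, 3 of 9 above (TGFBR1, TGFBR2 and TGFBI) and 6 of 10 below (with TGFB1, LTBP1 and LTBP2) were lower. Of all genes, 10.5% above and 14.9% below were lower by that rule. The ratio was under 1 for 88.9% of the members above, against 51.0% of all genes, and for 90.0% below, against 47.2% of all genes. The median log2 ratio of the members was -0.11 above and -0.43 below, while that of all genes was -0.0039 and 0.014. These shares describe 10 genes of 1 pathway and carry no test.

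**Figure D2:**
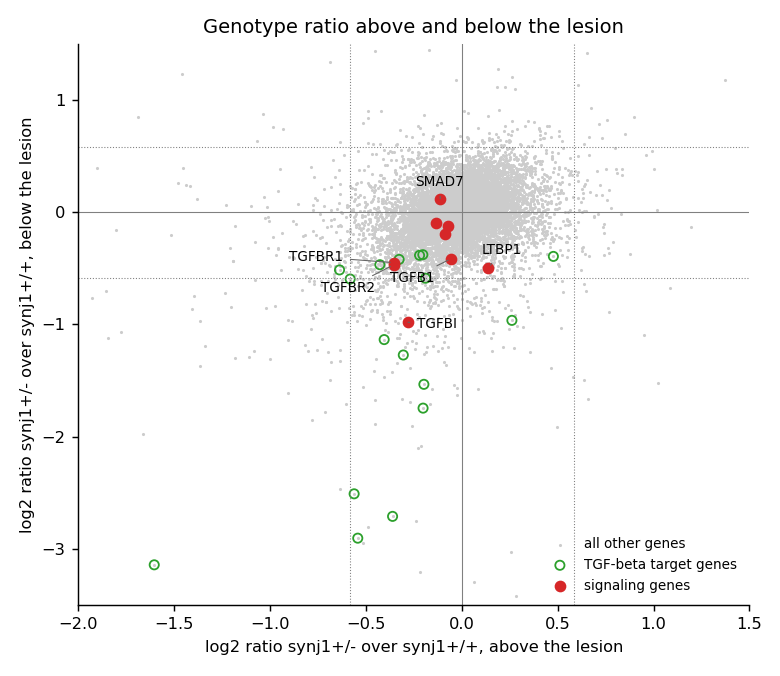
Each point is 1 of the 12023 genes listed at both sites, with the log2 ratio of synj1+/- over synj1+/+ above the lesion on x and below the lesion on y, where 12 genes lie outside the axes, dotted lines mark 1.5-fold, red points are the 9 signaling genes and green circles are 17 TGF-beta target genes. TGFBI sits lowest of the signaling genes (-0.28, -0.98), both receptors coincide near (-0.36, -0.46), and all 17 targets lie under 0 on y.

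Of the 9 genes with values at each site, 7 had a lower genotype ratio below the lesion than above it, or 77.8%, against 46.1% of all genes. On the log2 scale the difference below minus above was -0.70 for TGFBI, -0.64 for LTBP1 and -0.36 for TGFB1. Of all genes, 2.19%, 2.79% and 8.59% had a smaller value of this difference than TGFBI, LTBP1 and TGFB1. For the receptors, SMAD3, TGFB2 and TGFB3 it lay within 0.12 of 0, and for SMAD7 it was 0.23. The receptors were thus lower by a like factor at both sites, while TGFBI, LTBP1 and TGFB1 differed mainly below. The difference between sites could not be tested.

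Set out by site within a genotype, the same 3 genes were higher below than above in synj1+/+. The ratio of below to above was 2.38 for TGFBI, 1.76 for LTBP1 and 1.41 for TGFB1. In synj1+/- these ratios were 1.47, 1.13 and 1.10. TGFB2 and TGFB3 ran the other way in both genotypes, with ratios of 0.767 and 0.772 in synj1+/+ and 0.787 and 0.717 in synj1+/-. In synj1+/+ 2 of 9 genes were higher below by 1.5-fold, where 3.24% of all genes were, and 0 were lower, where 1.36% of all genes were. In synj1+/- 0 of 9 were higher, with 1.43% of all genes, and 0 were lower, with 0.832%. Of the 9 genes, 6 had their highest value in synj1+/+ below and 3 in synj1+/+ above, and 0 had it in a synj1+/- group. Over all genes the highest value fell in synj1+/+ below for 28.4%, in synj1+/+ above for 23.3%, in synj1+/- below for 28.2% and in synj1+/- above for 20.1%. The libraries of each site were down-sampled and normalised apart from those of the other site, so levels set across sites are a description only.

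The wider pathway was counted from a list of 31 further genes of TGF-beta release, reception and signal control. Above the lesion 28 were listed, of which 0 were higher and 3 lower in synj1+/- by 1.5-fold, with a median log2 ratio of -0.04. The most abundant of the 3 was NRROS, which holds latent TGF-beta on the surface of microglia and macrophages, at 70.4 in synj1+/+ and 42.0 in synj1+/-. The others, named after their values were seen, were THBS1, which can release latent TGF-beta, at 7.17 and 4.18, and BAMBI, a decoy receptor, at 4.85 and 3.17. Below the lesion 24 were listed, 0 were higher and 2 lower, with a median of -0.17 and a ratio under 1 for 20 of 24. EMILIN1, a matrix protein that limits the processing of the TGF-beta precursor, was listed at 28.3 in synj1+/+ and 10.6 in synj1+/- there, a log2 ratio of -1.42. FBN1, the fibrillin to which latent complexes attach, was listed at 9.11 and 3.51, and was likewise named after its values were seen. LTBP3 and LTBP4, relatives of LTBP1 that were named after their values were seen, had ratios of 0.895 and 0.984 below. FKBP1A, which binds the type I receptor and was the most abundant gene of the list, had ratios of 1.07 and 0.982.

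The genes that TGF-beta is known to induce, a list of 21 drawn up for the pathway, had larger differences than the signaling genes. Above the lesion 18 were listed, 0 higher and 2 lower by 1.5-fold, with a median log2 ratio of -0.34. COL3A1 was among them, at 5.26 and 1.73, and was named after its values were seen. Below the lesion 19 were listed, all 19 had ratios under 1, and 13 were lower by 1.5-fold, with a median of -0.96. Collagens I and III had the lowest ratios. COL3A1 was listed at 69.9 in synj1+/+ and 7.91 in synj1+/- below the lesion, a log2 ratio of -3.14. COL1A1 was listed at 47.2 and 6.29, and COL1A2 at 75.7 and 11.6. POSTN (periostin), a scar matrix protein, was listed at 85.9 and 15.1, with 12.2 and 8.28 above the lesion. LOX, which crosslinks collagen, was listed at 16.6 and 4.33, and BGN (biglycan), a proteoglycan that binds TGF-beta, at 143 and 42.5. Of these genes, LOX was not listed above the lesion, and in the others the synj1+/+ group below was the high one. SPARC, the most abundant of the list, was listed at 3112 and 2069 below and at 2200 and 1929 above.

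COL1A1, COL1A2 and COL3A1 also belong to the fibroblast markers. Without them 10 of 16 target genes were lower by 1.5-fold below the lesion, with a median log2 ratio of -0.71, and 1 of 15 above, with a median of -0.31. Other matrix genes, among them POSTN, LOX and BGN, remain in these counts. The part of fibroblasts in the remaining genes was therefore not taken out, and it was not tested.

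The sister branch of bone morphogenetic proteins and activins, 24 genes of which 22 were listed at each site, had medians near 0. The median log2 ratio was -0.04 above and -0.05 below, with 1 gene lower by 1.5-fold above and 3 below, and 0 higher at either site. ID3, a transcriptional target of this branch, was listed below at 75.9 in synj1+/+ and 49.5 in synj1+/-. ACVR2B, an activin receptor, was listed at 9.60 and 5.11 above and at 12.3 and 5.60 below, and BMP4, a ligand, at 10.9 and 6.44 below. These last 2 were named after their values were seen. ID2, the most abundant gene of the list, was listed at 114 and 111 above and at 127 and 105 below.

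**Figure D3:**
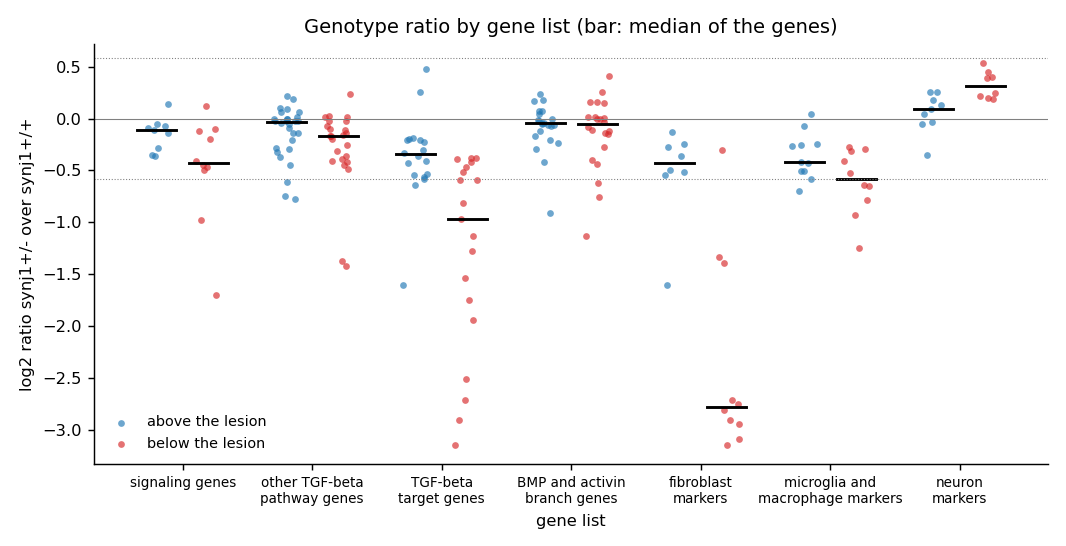
Each point is a gene, with the log2 ratio of synj1+/- over synj1+/+ on y and its gene list on x, blue above and red below the lesion, black bars for the medians and dotted lines for 1.5-fold. Below the lesion the medians run from -0.05 for the BMP and activin branch through -0.43 for the signaling genes and -0.96 for the target genes to -2.78 for the fibroblast markers, and the neuron markers lie above 0.

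Markers of cell types also differed between the genotypes, some lists lower and others higher in synj1+/-. The 10 fibroblast markers, which define collagen-producing cells of meninges, vessels and scar, had a summed value of 573 in synj1+/+ and 133 in synj1+/- below the lesion, and 9 of 10 were lower by 1.5-fold. DCN (decorin), the most abundant of them there, was listed at 139 and 19.8. Above the lesion 8 of 10 were listed, with a sum of 114 and 94.8 and a median log2 ratio of -0.43, and 1 of 8 (COL3A1) was lower by 1.5-fold. PDGFRA, which oligodendrocyte precursors also express, was the most abundant there, at 63.6 and 58.3. OGN and MFAP5 were not listed above the lesion, and 0 of the marker values listed at both sites were at the lowest value of the table. Over the 8 markers listed at both sites the sum in synj1+/+ below was 4.80 times that in synj1+/+ above, where synj1+/- above stood at 0.833 and synj1+/- below at 1.12. PDGFRA gave 63.6 of the 114 in synj1+/+ above and was listed at 69.3 and 56.0 below, so it weighs on these relative sums. TGFBI had the same order of groups as the fibroblast sum, with synj1+/+ below at 2.38, synj1+/- above at 0.823 and synj1+/- below at 1.21 times its value in synj1+/+ above. The phagocyte gene LYZ2 had that order too, at 381 in synj1+/+ and 235 in synj1+/- above and 1101 and 465 below. The summed microglia and macrophage markers did not, since synj1+/- below stood at 0.951 times synj1+/+ above. In bulk tissue fewer cells of a type and less RNA per cell cannot be told apart, and the part of fibroblast number in the values of TGFBI, LTBP1, LTBP2 and the target genes was not tested.

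The microglia and macrophage markers had lower sums in synj1+/- at both sites, with ratios under 1 for 10 of 11 above and 10 of 10 below. Above the lesion 11 of 12 were listed, with a sum of 1579 in synj1+/+ and 1127 in synj1+/-, a median log2 ratio of -0.41, and 2 lower by 1.5-fold. C1QA, a complement subunit and the most abundant there, was listed at 485 and 323. Below the lesion 10 of 12 were listed, with a sum of 2475 and 1388, a median of -0.58, and 5 lower by 1.5-fold. LYZ2, a lysozyme of phagocytes, was listed at 1101 and 465 there. TGFBR1, TGFBR2 and NRROS are known to be expressed by microglia. The part of microglia and macrophage number in their values, and in those of TGFBI, was not tested.

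Astrocyte markers had lower sums in synj1+/- at both sites. The 8 astrocyte markers summed to 18037 in synj1+/+ and 14936 in synj1+/- above the lesion and to 16186 and 12690 below, with GFAP the most abundant and 0 past 1.5-fold. GFAP alone gave 12975 and 10584 of the sums above, and ratios were under 1 for 6 of 8 markers above and 7 of 8 below. Endothelial markers summed to 205 and 216 above, where 7 of 8 had ratios over 1, and to 272 and 255 below, where 2 of 8 did, with FLT1 the most abundant and CDH5, the endothelial cadherin, at 16.1 and 10.6 below. Pericyte and smooth muscle markers, led by RGS5, summed to 131 and 147 above and 167 and 156 below. The neuron markers had higher sums in synj1+/-, with 0 past 1.5-fold at either site. They summed to 9502 and 10856 over 9 genes above, where 6 had ratios over 1 and 3 under 1, and to 8018 and 10254 over 8 genes below, where all 8 had ratios over 1. SNAP25 was the most abundant of them, and SYNJ1 itself is known as a neuronal gene. The 5 blood cell markers, led by HBA-A1, were all higher by 1.5-fold in synj1+/- above the lesion, where they summed to 253 and 1138, and below they summed to 634 and 830. For oligodendrocytes 2 of 6 markers were listed, led by MOBP, with ratios of the sums of 0.964 above and 0.942 below. Schwann cell markers, led by PMP22, had 1 of 3 higher by 1.5-fold above (NCMAP, 8.49 and 15.6), with sums of 1418 and 1295 above and 1449 and 1297 below. Skeletal muscle markers had 0 of 5 listed above and 2 of 5 below, which summed to 8.06 and 9.45. The part of each cell type in the values of the signaling genes was not tested.

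**Figure D4:**
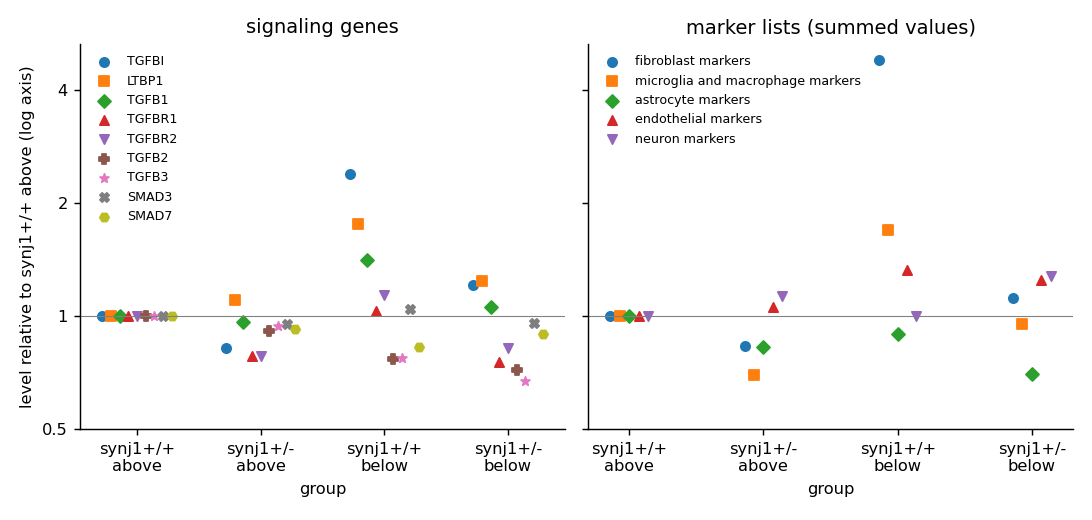
The level relative to synj1+/+ above (log axis, y) is drawn in the 4 groups (x) for the 9 signaling genes listed at both sites (left) and for the summed values of 5 marker lists over the genes listed at both sites (right), with 1 point per gene or list and no error bar. In synj1+/+ below TGFBI reached 2.38 and LTBP1 1.76, beside 4.80 for the fibroblast and 1.70 for the microglia and macrophage markers, while the neuron markers stood at 1.00.

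The genes whose pair of genotype ratios lay nearest to that of TGFBI were sought among 9285 genes with a value of 10 or more in all 4 groups. They were S100A11, a calcium-binding protein, with log2 ratios of -0.32 above and -0.94 below, IGFBP7, a secreted binding protein, with -0.30 and -0.92, and LGALS1, the galectin-1 gene, with -0.23 and -0.94. The distances, on the log2 scale over 2 ratios from 4 group values, were 0.054, 0.066 and 0.070. LTBP2 had no such neighbours because it was listed at 1 site.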

How the data were processed

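RNA was measured in 12 libraries of ApoE4 spinal cord, 3 for each genotype and site. The authors prepared TruSeq v2 libraries, reduced the reads of each site to its smallest library, aligned them to GRCm38.p6 with STAR 2.5.4b and computed upper-quartile normalised values with Cuffdiff 1.3.0 (cufflinks), versions and build per the labels' processing notes. The gene annotation was not given in the sources used here. The deposited values were read as FPKM, the unit that Cuffdiff gives, since no source used here names it, with 1 value per gene, genotype and site over the combined libraries. The lowest value is exactly 1 and 19 values stand at it, so 1 appears to have been added. The depth of single libraries was not used here, and no counting interval could be given. The library kit does not mark strand, so overlapping genes on opposite strands cannot be told apart.

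The table of 25985 rows also holds the authors' own p-values, q-values, fold changes and calls, and a further table the rows under a p-value limit. None of these were used. Groups came from the genotype and site labels. Ratios of synj1+/- over synj1+/+ within a site, and of below over above within a genotype, were computed in Python 3.11.15 with pandas 2.3.3 and numpy 2.4.6, and a gene was called at 1.5-fold or more. No test was made because no value per library was used. The signaling genes, the other lists and the markers were chosen with earlier results of these data known. Named were SYNJ1, all 10 signaling genes, list genes past 1.5-fold with a mean value of 10 or more (at most 6 per list, site and direction), the most abundant gene of each list, and the 3 nearest genes of a called member. CTGF was counted under the symbol CCN2 where so listed. The ratio and count steps were checked on simulated data. Alternatives were a fold of 1.2 or 2, subtracting 1 with a floor of 0.1, means of at least 10 or 50, centring, genes listed at both sites, and the mean for the median. Some genes of the lists are not reported here by name.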

Additional observations from a re-analysis of the deposited data

How the results depend on the processing

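No value per library was used, so leaving out a replicate and a fit with a replicate block were not run, and no paired analysis was possible because each group had 1 combined value. Filters leave the ratio of a single gene as it is and centring shifted it by at most 0.032, so subtracting 1 was the only alternative that could move it by 0.1 (log2), and it did so for 2 of 37 values. It took LTBP2 below the lesion to -2.57 and the site ratio of TGFBI in synj1+/+ to 1.37 (log2), and raised the genes higher below in synj1+/- to 1 (all genes 2.2%). Of 86 counts and medians, 70 stayed within 0.1 (medians) or 1.5 times (counts) of the value reported and 16 did not. With a fold of 1.2, 3 genes were lower in synj1+/- above the lesion (all genes 10.5%) and 6 below (14.9%). By site, 3 were lower and 3 higher below than above in synj1+/+ (all genes 11.5% and 13.7%). In synj1+/- 2 were lower and 1 was higher by site (6.93% and 9.91%). With a fold of 2, 1 gene was lower below the lesion (all genes 1.3%) and 1 was higher below than above in synj1+/+ (0.99%). A mean of 10 or more left 1 gene lower below the lesion (LTBP2 drops out, all genes 3.26%), as did the genes listed at both sites (1, all genes 3.65%). A mean of 50 or more kept 2 genes, with 0 lower below (all genes 1.84%), 0 higher by site in synj1+/+ (1.37%), and medians of -0.23 above, -0.16 below and -0.11 by site in synj1+/+, where the median of all 9 genes was 0.063 and their mean 0.20. The median by site in synj1+/-, 0.017, took the values -0.012 and -0.045 with means of at least 10 and 50, and -0.0053 and -0.015 under centring, as did SMAD3 under centring, so neither site median has a settled sign. Centring on the median or upper quartile of all genes shifted log2 ratios by -0.0039 to 0.032. LTBP2, at 5.99 and 1.84, lies near the lowest value, 1, and its ratio depends on that value.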
